A study of Mus musculus with 18 samples.

Results

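The subunits of the proteasome and of the COP9 signalosome were taken by name, as every probe set whose single annotated symbol begins with Psma to Psmg and a digit or with Cops2 to Cops8: 119 probe sets of 57 genes, out of 34945 probe sets of 18193 genes with 1 symbol. By symbol they comprised 8 core alpha genes (18 probe sets), 11 core beta genes (16), 6 ATPase genes (12), 14 non-ATPase genes (32), 4 activator and inhibitor genes (14), 4 assembly chaperone genes (8) and 8 signalosome genes (16). The other 3 probe sets belong to Psmc3ip and Psme3ip1, which match by their letters but are not subunits, and none of the 3 was called. A probe set that carries the 2 symbols Psme2b and Psme2 was left out.

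The 26S proteasome degrades proteins that carry ubiquitin chains. Its core particle is a barrel of outer rings of alpha subunits (Psma genes), which gate the entrance, and inner rings of beta subunits (Psmb genes), some of which cut peptide bonds. The regulatory particle sits on the end of the barrel: its ATPases (Psmc genes) unfold the substrate and its non-ATPase subunits (Psmd genes) bind ubiquitin chains, hold the lid together or remove the chains. The COP9 signalosome (Cops genes) is a complex related to the proteasome lid that removes the ubiquitin-like protein NEDD8 from cullin ubiquitin ligases. Neurons use the proteasome at synapses as well as in the cell body.

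Both groups of 9 arrays came from transgenic mice (C57BL/6J X DBA/2J) with a bacterial artificial chromosome in which the orexin coding sequence was replaced by a flag-tagged rat poly(A)-binding protein 1 followed by eGFP, so the orexin gene's regulatory sequence drove the tag. The first group, IP, held polyA RNA that was cross-linked with formaldehyde to the tagged protein and captured with anti-flag beads, and WB arrays held total RNA from the brain as a whole. Ages of 11 and 14 weeks are listed without assignment to arrays, and each array started from 5 ng of RNA. The design sets the captured transcripts against those of the brain at large. The labels do not say that the samples of a group came from separate animals, so every p-value rests on a spread that may be technical.

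The deposited values are MAS5 intensities, a brightness per probe set, and all 18 arrays had the same mean of 500 once 2% of values at each end were set aside. Differences are IP minus WB on log2(intensity + 16), which understates the change of dim probe sets, with a 95% confidence interval, and a probe set was called higher or lower at a limma adjusted p under 0.05 over 45037 probe sets. Every mean ± SD and every test is over 9 IP and 9 WB arrays, and 3 intensities given in a row are the lowest, the median and the highest of the 9. Hcrt, the orexin gene, was not called: its intensities were 73.8, 308 and 490.6 in IP and 156, 248 and 388 in WB (difference 0.21, adjusted p = 0.568). By the brightest probe set of each, of 4 genes listed as marking orexin neurons 1 was higher (Nptx2) and 1 lower (Pdyn), and none was at 0. Nptx2 was higher on 1 of its 2 probe sets, and the uncalled Lhx9 on 1 of its 4. Of all genes by brightest probe set, 21.7% were higher and 21.7% lower. Of 10 genes of glia, vessels and blood 4 were higher, among them Gfap (2.71, but lower on 1 of its 3 probe sets) and Mbp (1.12, but lower on 4 of its 8), and 6 were lower, among them Hba-a2 (-4.61) and Aif1 (-3.58). Snap25, of 2 neuronal genes, was higher and Syt1 lower, though 1 of the 4 Syt1 probe sets was higher. The summed level of the orexin neuron list was 10.24 to 11.35 (log2) in IP and 9.96 to 10.57 in WB, and that of the other cells' list was 15.66 to 16.75 in IP and 15.37 to 16.01 in WB. Bright genes weigh most in such sums: in IP the highest median intensity was that of Nptx2 (1088) in the orexin neuron list and of Mbp (35090) in the other. The log2 ratio of the 3' to the 5' Gapdh control probe sets, which rises when the 5' part of a transcript is lost, was 3.33 to 5.45 in IP and 1.33 to 1.78 in WB. That of actin was -1.31 to 0.00 in IP and -0.23 to 0.03 in WB. Correlations between arrays of a group were 0.805 to 0.906 in IP and 0.922 to 0.954 in WB. The part of these values in the results that follow was not tested, and in RNA of whole tissue fewer cells of a type and less RNA per cell cannot be told apart.

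Taken as 1 group, the proteasome and signalosome probe sets were called lower in the immunoprecipitate more often than higher under every scaling tried, with a margin that depended on the scaling. As deposited, of the 119 probe sets 56 were lower (47.1%, where 30.8% of all tested probe sets were lower) and 16 were higher (13.4%, where 14.2% of all were), and 47 were not called. The median difference was -0.59 over the 119 and -0.23 over all probe sets. In 33 probe sets all 9 IP arrays lay below all 9 WB arrays (27.7%, against 10.3% of all), and in 9 all IP arrays lay above (7.56%, against 5.22%). Quantile normalization gave 18 member probe sets higher and 44 lower (15.1% and 37.0%, against 24.1% and 22.0% of all probe sets). After centring each array on its median the split was 27 higher and 37 lower (22.7% and 31.1%, against 28.4% and 18.5% of all). After scaling on the hybridization controls, transcripts of bacteria and of bacteriophage P1 added to each sample before hybridization, it was 5 higher and 83 lower (4.20% and 69.7%). That share of lower calls was near the 62.4% of all probe sets that were lower there (3.24% were higher). The median difference of all probe sets was 0.20 after centring, -1.03 after hybridization control scaling and 0.11 after quantile normalization. The members' median stayed below that of all probe sets by 0.36 as deposited, 0.38 after quantile normalization, 0.36 after centring and 0.43 after hybridization control scaling.

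**Figure D1:**
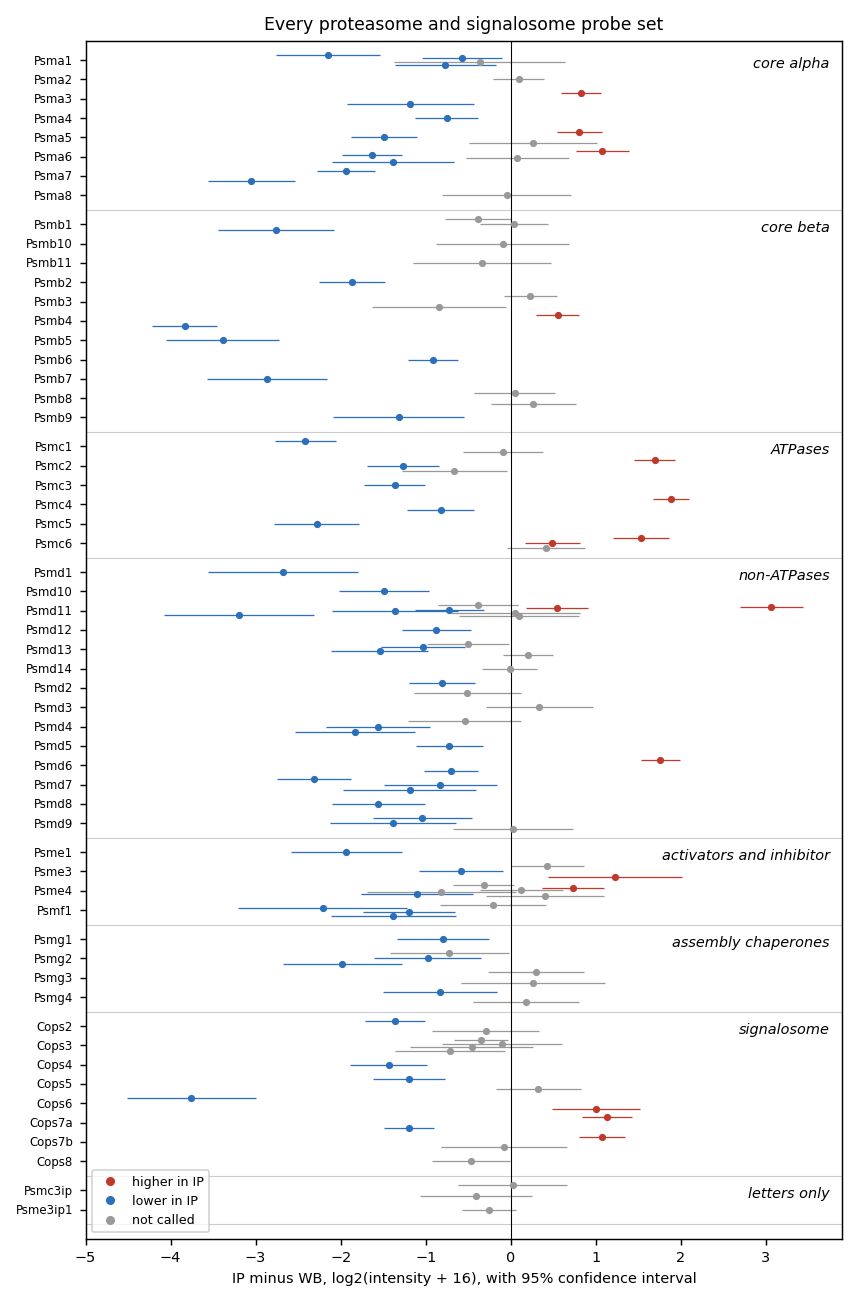
Difference between 9 IP and 9 WB arrays for each of the 119 probe sets (horizontal axis, log2, with its 95% confidence interval), grouped by gene and class. The 56 lower probe sets reach -3.84 (Psmb4) and the 16 higher ones reach 3.06 (Psmd11), 12 genes have both kinds, and after hybridization control scaling 6 of the 16 turn negative and 5 stay called.

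Lower calls were frequent among bright probe sets too. Of the 87 member probe sets brighter than the median of all (7.71 on the log2 scale), 43 were lower (49.4%, against 36.4% of all bright probe sets) and 15 higher (17.2%, against 21.6%). With 1 probe set a gene, the one of highest mean over the 18 arrays, 26 of 57 genes were lower (45.6%, against 21.7% of 18193 genes) and 10 were higher (17.5%, against 21.7%). The median over genes was -0.50, against 0.00 for all genes. When all probe sets of a gene were averaged, 32 genes were lower (against 29.0% of all genes) and 3 were higher (against 12.5%), Psmc6, Psmc4 and Psmd6. Shares by class are drawn in the bar plot of calls. As deposited, lower calls outnumbered higher ones in all 7 classes, but not in the ATPases (5 higher and 5 lower), the activators and inhibitor (3 and 3) and the assembly chaperones (1 and 1) under quantile normalization, nor after centring (5 and 4, 5 and 4, and 1 and 1). They made up 59.4% of the non-ATPase probe sets, 55.6% of the core alpha, 50.0% of the assembly chaperone and 31.2% of the signalosome probe sets, the last close to the 30.8% of all probe sets, and the differences between classes were not tested. In the non-ATPases 16 probe sets were lower and 3 higher under quantile normalization (50.0% lower, against 22.0% of all), 11 and 4 after centring (34.4%, against 18.5%), and 25 and 2 after hybridization control scaling (78.1%, against 62.4%).

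**Figure D2:**
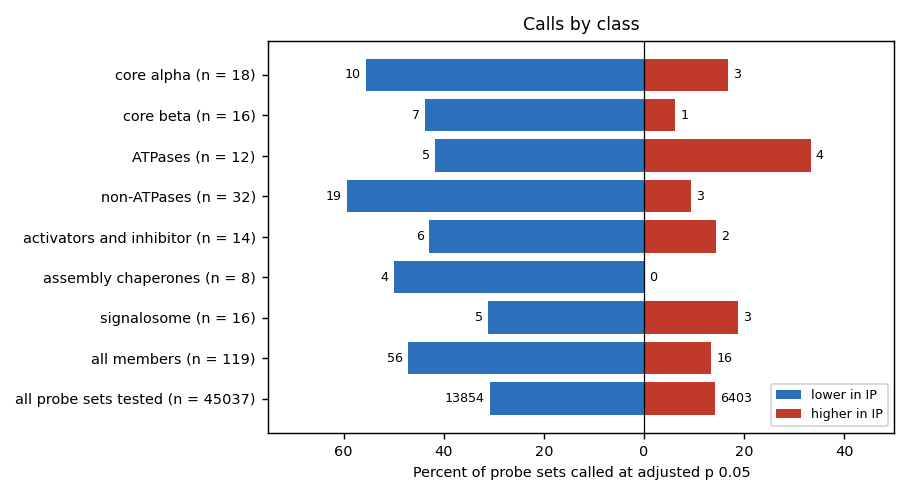
Percent of probe sets called lower in IP (left) and higher in IP (right) at adjusted p 0.05 in each class, with the number called beside each bar and n for the probe sets in the class. All members stand at 47.1% lower and 13.4% higher, and all 45037 probe sets at 30.8% lower and 14.2% higher.

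Among the core alpha subunits, which form the gated outer rings, 10 of 18 probe sets were lower (55.6%, against 30.8% of all) and 3 higher (16.7%, against 14.2%). Psma7 fell most. On 1423568_at it had intensities of 64.7, 191 and 322 in IP, against 1248, 1595 and 2039 in WB (difference -3.05, -3.56 to -2.54, 8.28-fold lower, adjusted p = 3.14e-10). On its other probe set, 1423567_a_at, it had 387, 729 and 1363 in IP, against 2606, 2907 and 3051 in WB (difference -1.94). On neither did the groups overlap. Psma7 was 1 of 2 members, out of 33 with several probe sets, of which all were lower (against 693 of 9010 such genes). Psma1 had 93.0, 278 and 672 in IP, against 980.5, 1389 and 1495 in WB on 1415695_at (difference -2.15, -2.76 to -1.53, adjusted p = 2.01e-06). IP replicate 2 was the lowest and replicate 4 the highest, and all 9 lay under every WB array. Of its dimmer probe sets, 1458292_at (-0.57, adjusted p = 0.0417) and 1436769_at (-0.77, adjusted p = 0.0329) were also lower, but both calls ended with the replicate block (adjusted p = 0.0562 for each), under quantile normalization and centring, and when any of several single arrays was left out. Psma4 was lower by a smaller step (difference -0.76, adjusted p = 0.00135), a call that ended after centring. Psma2 was not called (0.09, -0.21 to 0.39), and its IP arrays spread from 1687 to 3985 around WB values of 2040 to 2800.

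The other alpha genes depended on the probe set. Psma6 had intensities of 5854, 8632 and 15692 in IP, against 3363, 4392 and 5040.2 in WB on 1437144_x_at (difference 1.08, 0.76 to 1.39, adjusted p = 2.33e-06). On 1416506_at it had 557, 868 and 1430.4 in IP, against 2278, 2758 and 3313 in WB (difference -1.64, -1.99 to -1.28, adjusted p = 2.61e-08). The groups were apart on both, in opposite directions, and the higher one lost its call after hybridization control scaling (0.13). Of its other probe sets, 1435316_at was dim and lower, with 2.38, 16.4 and 90.9 in IP, against 53.3, 104 and 142 in WB (difference -1.39, adjusted p = 0.00209). The last, 1435317_x_at, had 289, 517 and 2762 in IP and 376, 532 and 752 in WB and was not called (0.08 with all arrays, -0.21 without IP replicate 9, the highest). Psma3 was higher on 1448442_a_at, with 4719, 5752 and 8773 in IP, against 3009, 3272 and 3777 in WB (difference 0.83, adjusted p = 2.26e-06), and lower on 1441707_at (-1.18, adjusted p = 0.0096), where the groups overlapped and the call ended under quantile normalization (adjusted p = 0.067) and centring (0.0731). Psma5 was higher on 1434356_a_at, with 4212, 6621 and 8526 in IP, against 3063, 3731 and 4395 in WB (difference 0.81, adjusted p = 1.22e-05), and 8 of 9 IP arrays lay above every WB array. It was lower on 1424681_a_at, with 330.5, 621 and 1384 in IP, against 1522, 1859 and 2300.3 in WB (difference -1.49, adjusted p = 4.95e-07). The higher probe sets of Psma3 and Psma5 turned to -0.11 and -0.13 after hybridization control scaling, and that of Psma5 also lost its call under quantile normalization (0.23). The last Psma5 probe set, 1454940_at, had 47.7, 125 and 232 in IP, against 12.7, 126 and 194 in WB and was not called (0.27). Psma8, an alpha subunit of the testis, was not called (-0.05), with 5.36, 56.0 and 129 in IP and 13.4, 73.8 and 104 in WB.

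The core beta subunits held the 2 largest falls of the proteasome genes, in Psmb4 and Psmb5. Of their 16 probe sets 7 were lower (43.8%, against 30.8% of all) and 1 higher (6.25%, against 14.2%). The catalytic subunits of the standard core, Psmb5, Psmb6 and Psmb7, cut after hydrophobic, acidic and basic residues in that order, and all were lower. Psmb5 had intensities of 9.06, 22.5 and 141 in IP, against 294, 461 and 581 in WB (difference -3.39, -4.05 to -2.73, 10.5-fold lower, adjusted p = 5.20e-09). Because the IP values were dim, the size depended on the amount added before the log, from -2.40 with 64 to -4.12 with 1. Psmb7 had 97.4, 457 and 1883 in IP, against 3432, 3788 and 4251 in WB (difference -2.87, -3.58 to -2.16, adjusted p = 2.25e-07). Its IP arrays spread widely, with replicate 2 lowest and replicate 7 highest, while the WB arrays were tight. Psmb6 had 519, 775 and 1072 in IP, against 1313, 1413 and 1822 in WB (difference -0.92, -1.21 to -0.63, adjusted p = 8.80e-06). None of the 3 had an IP array that reached the lowest WB array.

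Of the structural beta subunits, Psmb4 showed the largest fall of any member on 1451205_at, with intensities of 84.4, 109.7 and 199 in IP, against 1413, 1849 and 2258 in WB (difference -3.84, -4.22 to -3.45, 14.3-fold lower, adjusted p = 7.87e-14). On 1438984_x_at it had 5375, 6941 and 9694 in IP, against 4439, 4872 and 5599.7 in WB (difference 0.55, adjusted p = 5.49e-04), a rise that turned to -0.14 under quantile normalization and -0.39 after hybridization control scaling. Psmb1 fell on 1448166_a_at, with 33.5, 118 and 420.5 in IP, against 709, 873 and 1111 in WB (difference -2.76, adjusted p = 2.49e-07), and was not called on 1420053_at (-0.38) and 1420052_x_at (0.04). Psmb2 had 221, 549 and 706 in IP, against 1365, 1704 and 2006 in WB (difference -1.86, adjusted p = 1.38e-08), again with no overlap. Psmb3 was not called on either probe set (0.23 and -0.85).

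The subunits that replace the catalytic ones when interferon acts on a cell were dim or uncalled. Psmb8 had 7.46, 22.5 and 44.7 in IP and 8.89, 17.0 and 45.7 in WB on 1422962_a_at (difference 0.05, -0.43 to 0.52), and 9.13, 25.5 and 55.0 in IP and 5.21, 15.1 and 54.3 in WB on 1444619_x_at (difference 0.27, -0.23 to 0.77). These were no brighter than the bacterial tryptophan control probe sets, whose intensities went from 14.3 to 146 in IP and from 7.43 to 122 in WB, so a difference was not detectable at this signal, although 1444619_x_at passed the threshold after centring (0.69, adjusted p = 0.0323). Psmb9 had 5.84, 9.98 and 44.1 in IP, against 15.1, 77.5 and 172 in WB (difference -1.32, adjusted p = 0.0053), with 6 of 9 IP arrays under every WB array and a call that ended after centring (adjusted p = 0.0669). Psmb10 had 123, 465 and 1919.5 in IP and 216, 511 and 754 in WB and was not called (-0.10, -0.88 to 0.69), except as lower after hybridization control scaling (adjusted p = 0.0269). Psmb11, a beta subunit of the thymus, was not called (-0.34).

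The ATPases split by gene. Of 12 probe sets 4 were higher (33.3%, against 14.2% of all), 5 lower (41.7%, against 30.8%) and 3 not called. By brightest probe set 3 genes (Psmc2, Psmc4 and Psmc6) were higher and 3 (Psmc1, Psmc3 and Psmc5) lower (50.0% each way, against 21.7% of all genes). Psmc4 had intensities of 10422, 13986 and 14863 in IP, against 3117, 3476 and 4175 in WB on 1416290_a_at (difference 1.89, 1.67 to 2.10, 3.69-fold higher, adjusted p = 4.31e-13). Psmc2 had 8232, 13546 and 15365 in IP, against 3213, 3943 and 4351 in WB on 1435859_x_at (difference 1.69, 1.45 to 1.94, adjusted p = 2.48e-11). All 9 IP arrays lay above all 9 WB arrays for both, and both calls stayed after hybridization control scaling (0.94 and 0.75). Yet the other called probe set of each gene was lower with no overlap. Psmc4 had 322, 761 and 1105 in IP, against 1146, 1293 and 1519 in WB on 1416291_at (difference -0.82, adjusted p = 0.00103, and 0.0886 after centring). Psmc2 had 342, 806 and 1259.9 in IP, against 1385, 1834 and 2239 in WB on 1426611_at (difference -1.27, adjusted p = 1.65e-05). The third Psmc2 probe set, 1443307_at, had 40.5, 182 and 327 in IP and 181, 264 and 351 in WB and was not called (-0.66, adjusted p = 0.074), though it was lower without IP replicate 8 (-0.79, adjusted p = 0.0333).

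Psmc6 was the ATPase with no lower probe set. On 1417770_s_at it had 3173, 5631 and 8581 in IP, against 1578, 1974 and 2519 in WB (difference 1.53, 1.21 to 1.86, adjusted p = 2.34e-08). On 1417771_a_at the difference was 0.49 (adjusted p = 0.012), which turned to -0.45 after hybridization control scaling, and on 1417769_at it was 0.42 and not called. The remaining ATPases fell. Psmc1 had 494, 849 and 1393 in IP, against 3987, 4132 and 5754 in WB (difference -2.42, -2.78 to -2.06, 5.34-fold lower, adjusted p = 4.51e-11), and its other probe set, 1439392_x_at, was at the level of the bacterial controls in both groups. Psmc5 had 149, 536 and 819 in IP, against 2158, 2243 and 2410.4 in WB (difference -2.28, -2.78 to -1.78, adjusted p = 3.40e-08). Psmc3 had 319.8, 568 and 832 in IP, against 1152, 1473 and 1707 in WB (difference -1.37, adjusted p = 5.82e-07). In none of these did an IP array reach the lowest WB array.

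Among the non-ATPase subunits 19 of 32 probe sets were lower (59.4%, against 30.8% of all), 3 were higher (9.38%, against 14.2%) and 10 were not called. Psmd1, a large scaffold subunit of the base, had intensities of 13.2, 394 and 1368 in IP, against 1557, 1906 and 2649 in WB (difference -2.68, -3.56 to -1.79, adjusted p = 1.49e-05). IP replicate 6 stood far under the other IP arrays, but all 9 were below WB. Psmd7, the partner of the deubiquitinase in the lid, was lower on all of its probe sets. On 1451056_at it had 93.8, 293 and 448 in IP, against 1213, 1384 and 1620.2 in WB (difference -2.31, -2.75 to -1.88, adjusted p = 2.39e-09). The calls of 1454368_at (-0.83, adjusted p = 0.0391) and 1432820_at (-1.19, adjusted p = 0.0127) ended under quantile normalization and centring, and the first also when any of 9 single arrays was left out. Psmd14, the deubiquitinase itself, was not called: it had 2152, 3444 and 6002 in IP and 2978, 3648 and 4287 in WB (difference -0.01, -0.33 to 0.31). Its IP arrays reached both above and below the WB arrays.

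The ubiquitin receptor Psmd4 had 2 lower probe sets of 3. On 1425859_a_at it had 21.1, 189 and 339 in IP, against 435, 529 and 745 in WB (difference -1.83, -2.54 to -1.13, adjusted p = 1.01e-04), and on 1418874_a_at the difference was -1.56 (adjusted p = 1.29e-04), with no overlap on either. The remaining one, 1451725_a_at, was not called (-0.54). Psmd8, a lid subunit, was lower (-1.56, adjusted p = 3.39e-05), as was Psmd12 (-0.87, adjusted p = 8.00e-04) and the large base subunit Psmd2 (-0.81, adjusted p = 9.95e-04). The calls of Psmd12 and Psmd2 ended after centring (adjusted p = 0.0745 and 0.127). Psmd13 was lower on 2 of 4 probe sets (-1.03 and -1.54) and Psmd3 was not called (0.34). Psmd5, Psmd9 and Psmd10, chaperones that help assemble the base, were lower on 4 of 5 probe sets (against 30.8% of all probe sets). Psmd10 had 72.9, 226 and 394 in IP, against 510.0, 555 and 838 in WB (difference -1.49, adjusted p = 4.13e-05). Psmd9 had differences of -1.38, -1.04 and 0.03, the last not called and that of 1447670_at (-1.04) not called under quantile normalization (adjusted p = 0.085) or centring (0.0769), and Psmd5 of -0.72 (adjusted p = 0.00321, and 0.253 after centring).

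The 3 higher probe sets of this class belong to Psmd6 and Psmd11, lid subunits. Psmd6 had 4555, 5756 and 7650.0 in IP, against 1413, 1750.1 and 1847 in WB on 1423696_a_at (difference 1.76, 1.53 to 1.99, 3.38-fold higher, adjusted p = 4.45e-12). On 1423697_at it had 509, 844 and 1124 in IP, against 1223, 1379 and 1669 in WB (difference -0.70, adjusted p = 5.87e-04, and 0.166 after centring). The groups were apart on both, in opposite directions. Psmd11 had 8 probe sets, the most of any member, and they ran from the largest rise of all members to one of its largest falls. On 1440253_at it had 1968, 3914 and 7261 in IP, against 352, 441 and 558 in WB (difference 3.06, 2.69 to 3.43, 8.36-fold higher, adjusted p = 1.23e-12). On 1456104_at it had 3.19, 100.5 and 194 in IP, against 581, 670.1 and 861 in WB (difference -3.20, -4.08 to -2.31, 9.18-fold lower, adjusted p = 1.26e-06). Neither pair of groups overlapped, and the fall went from -2.43 with 64 added to -3.86 with 1. A further Psmd11 probe set was higher, 1456059_at, with 484, 1109 and 1321 in IP, against 503, 691 and 1027 in WB (difference 0.54, adjusted p = 0.0149, and -0.38 after hybridization control scaling). There 6 of 9 IP arrays lay above every WB array and IP replicate 2 lay below. Lower too were 1429370_a_at, with 28.7, 377 and 648 in IP, against 655, 803 and 927 in WB (difference -1.36, adjusted p = 0.00306), and 1431013_at, with 219.5, 409.8 and 619 in IP, against 533, 664 and 1006 in WB (difference -0.72, adjusted p = 0.00402, 0.0599 under quantile normalization and 0.233 after centring). The other 3 were not called and overlapped. Of these, 1437080_s_at had 704, 1253 and 3964 in IP and 1592, 1854 and 2289 in WB (difference -0.39, and -0.57 with adjusted p = 0.0128 without IP replicate 5, the highest). The differences of 1432727_at (88.0, 284 and 471 in IP and 47.9, 271 and 499 in WB) and 1432726_at (10.4, 52.8 and 123 in IP and 10.6, 48.0 and 84.6 in WB) were 0.06 and 0.10.

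The alternative caps of the core and its inhibitor were lower on 6 of 14 probe sets (42.9%, against 30.8% of all). They were higher on 2 (14.3%, close to the 14.2% of all). Psme1, a subunit of the interferon-inducible activator, had intensities of 27.9, 261 and 500.2 in IP, against 609, 885 and 1103 in WB (difference -1.93, -2.59 to -1.28, adjusted p = 1.99e-05), with no overlap. Psmf1, which encodes an inhibitor of the core, was lower on 3 of 4 probe sets. It had 38.0, 100.0 and 149.5 in IP, against 182, 203 and 339.9 in WB on 1451337_at (difference -1.20, adjusted p = 5.56e-04). The largest Psmf1 difference was -2.21 on 1424370_s_at (adjusted p = 5.40e-04), where 8 of 9 IP arrays were under every WB array. On 1424369_at the difference was -1.38 (0.0565 as adjusted p under quantile normalization), and 1424371_at was not called (-0.21).

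Psme3, the nuclear activator, had 1 higher, 1 lower and 1 uncalled probe set. On 1438509_at it had 9.53, 44.4 and 224 in IP, against 10.8, 15.0 and 75.7 in WB (difference 1.23, adjusted p = 0.0107), both groups dim and overlapping, and the call ended after hybridization control scaling (0.68, adjusted p = 0.139). On 1418079_at it had 203, 322 and 904 in IP, against 477, 572 and 704 in WB (difference -0.59, adjusted p = 0.0489), a call that ended under most alternatives, among them leaving out any of 15 of the 18 arrays. On 1418078_at it had 2184, 6831 and 9983 in IP and 3484, 4439.9 and 5189 in WB and was not called (0.43, adjusted p = 0.0997), but it was higher without IP replicate 9 (0.61, adjusted p = 0.0026). Psme4, a large activator of the nucleus, had 6 probe sets. On 1426823_s_at it had 520.4, 789.7 and 1419 in IP, against 373, 443 and 585 in WB (difference 0.73, adjusted p = 0.00147, and -0.18 after hybridization control scaling). On 1443116_at it had 18.3, 167 and 287 in IP, against 241, 294 and 389 in WB (difference -1.10, adjusted p = 0.0066, 0.0905 under quantile normalization and 0.0967 after centring). The groups overlapped on both, and the other 4 were not called. Of these, 1426824_at had 366, 662 and 1072 in IP and 702, 808 and 909 in WB (difference -0.32, and -0.41 with adjusted p = 0.0449 without IP replicate 7), and 1452211_at had 275, 384 and 1186 in IP and 326, 408 and 518 in WB (0.12). The dimmer 1445147_at had 34.8, 178 and 905 in IP and 162, 341 and 445 in WB (difference -0.82, and -1.09 with adjusted p = 0.0218 without IP replicate 2), and 1446464_at had 67.0, 200.3 and 429 in IP and 77.5, 143 and 246 in WB (0.40). The call of 1452211_at moved with the scaling, to higher after centring (0.55, adjusted p = 0.045) and lower after hybridization control scaling (-0.78, adjusted p = 0.0289). After the latter 1426824_at (-1.24) and 1445147_at (-1.68) were also called lower. Under quantile normalization (0.86, adjusted p = 0.0381) and centring (0.83, adjusted p = 0.0477) 1446464_at was called higher. As deposited, Psme4 thus held probe sets of every call, and 3 of its 6 had a negative difference.

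Of the assembly chaperones, which put the alpha ring together, 4 of 8 probe sets were lower (50.0%, against 30.8% of all) and none was higher (against 14.2%). Under quantile normalization 1 was lower and 1 higher (12.5% each way, against 22.0% lower of all), and likewise after centring (against 18.5% lower). Psmg2 had intensities of 1.22, 38.6 and 92.2 in IP, against 136, 187 and 261 in WB on 1425373_a_at (difference -1.98, -2.68 to -1.28, adjusted p = 3.67e-05). The groups did not overlap there, but the IP values were as dim as the bacterial controls. The other lower ones were 1448212_at of Psmg2 (-0.98), Psmg1 (-0.79) and 1435431_at of Psmg4 (-0.83). All of these 3 calls ended under quantile normalization and centring, and that of Psmg4 also when any of 12 single arrays was left out. Psmg3 was not called on either probe set (0.30 and 0.26).

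In the COP9 signalosome 5 of 16 probe sets were lower, 3 were higher and 8 were not called. Its share of lower calls (31.2%) was close to that of all probe sets (30.8%), and after centring 5 were lower and 4 higher, with a median difference of 0.02. Cops5, the subunit that cuts NEDD8 off cullins, had intensities of 219, 548 and 835 in IP, against 913, 1309 and 1514 in WB on 1460171_at (difference -1.19, -1.62 to -0.77, adjusted p = 3.55e-05), and was not called on 1439243_x_at (0.33). Cops6, its partner, had 19.0, 124 and 364 in IP, against 1209, 1573 and 1928 in WB on 1451366_at (difference -3.76, -4.52 to -3.00, 13.5-fold lower, adjusted p = 8.66e-09). On 1451367_at, Cops6 had 172, 342 and 552 in IP, against 94.3, 213 and 225 in WB (difference 1.00, 0.48 to 1.53, adjusted p = 0.00218), and this rise lost its call after hybridization control scaling (0.13). The IP arrays were under WB without overlap on the first, and 8 of 9 were above WB on the second. Among the scaffold subunits, Cops2 had 294, 492 and 664 in IP, against 1037, 1235 and 1663 in WB on 1423459_at (difference -1.36, adjusted p = 4.42e-07). Cops4 had 209, 607 and 861 in IP, against 1116, 1362 and 1642 in WB (difference -1.44, adjusted p = 6.86e-06). For both the groups were apart.

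The alternative subunits Cops7a and Cops7b held the other signalosome rises. Cops7b had 1880.1, 2219.9 and 2828 in IP, against 803, 1101 and 1410.0 in WB on 1418721_at (difference 1.07, 0.80 to 1.34, adjusted p = 3.63e-07), and was not called on 1418720_at (-0.08). Cops7a had 1163, 1682 and 2505 in IP, against 730.4, 796 and 950.3 in WB on 1423245_at (difference 1.13, 0.83 to 1.43, adjusted p = 5.94e-07). The groups did not overlap for either, but neither was called after hybridization control scaling (0.14 for Cops7b and 0.20 for Cops7a). On 1429078_a_at, Cops7a had 386, 671 and 755 in IP, against 1282, 1404 and 1707 in WB (difference -1.20, -1.49 to -0.90, adjusted p = 2.01e-07), again without overlap. Cops3 was not called on any of 4 probe sets (-0.72 to -0.10) and Cops8 was not called (-0.47, adjusted p = 0.0949). Gps1, which encodes the first subunit of the complex and is outside the chosen names, was lower (-0.51, adjusted p = 0.0387).

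Probe sets of 1 gene went opposite ways in 12 of the 33 member genes with 2 or more of them (36.4%, against 22.0% of 9010 such genes on the array). The 12 were Psma3, Psma5, Psma6, Psmb4, Psmc2, Psmc4, Psmd6, Psmd11, Psme3, Psme4, Cops6 and Cops7a. Members with several probe sets had 2.88 of them on average, and such genes on the whole array had 2.86. The number of such members was 8 with quantile normalization (24.2%, against 20.3%), 10 after centring (30.3%, against 22.2%) and 4 after hybridization control scaling (12.1%, against 9.46%). Every probe set was lower in Psma7 and Psmd7 (2 of 33 such members, against 693 of 9010 such genes on the array). No member with several had all of them higher (against 110 of 9010). All 16 higher probe sets belong to genes with 2 or more. Of the 24 genes with a single probe set none was higher (against 13.2% of such genes), with limma as elsewhere, and 16 were lower (66.7%, against 20.8%), with a median difference of -0.90 (against -0.05). They were 0 higher and 16 lower under quantile normalization (against 27.8% and 13.4% of such genes), 1 and 11 after centring (against 31.5% and 11.0%), and 0 and 22 after hybridization control scaling (against 1.83% and 53.6%). Probe set names with a letter before the ending mark probes that fit several transcripts of a gene (a), of related genes (s) or other sequences as well (x). Of the 16 higher probe sets 10 bear such a letter. Lettered member probe sets were higher in 10 and lower in 13 of 37 (27.0% and 35.1%), near the 24.9% higher and 30.6% lower of all lettered ones. Plain member probe sets were higher in 6 and lower in 43 of 82 (7.32% and 52.4%), where 11.6% of all plain ones were higher and 30.8% lower. Where each probe set lies along its transcript was not analysed here, and the part of the Gapdh ratio given above in these opposite calls was not tested.

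**Figure D3:**
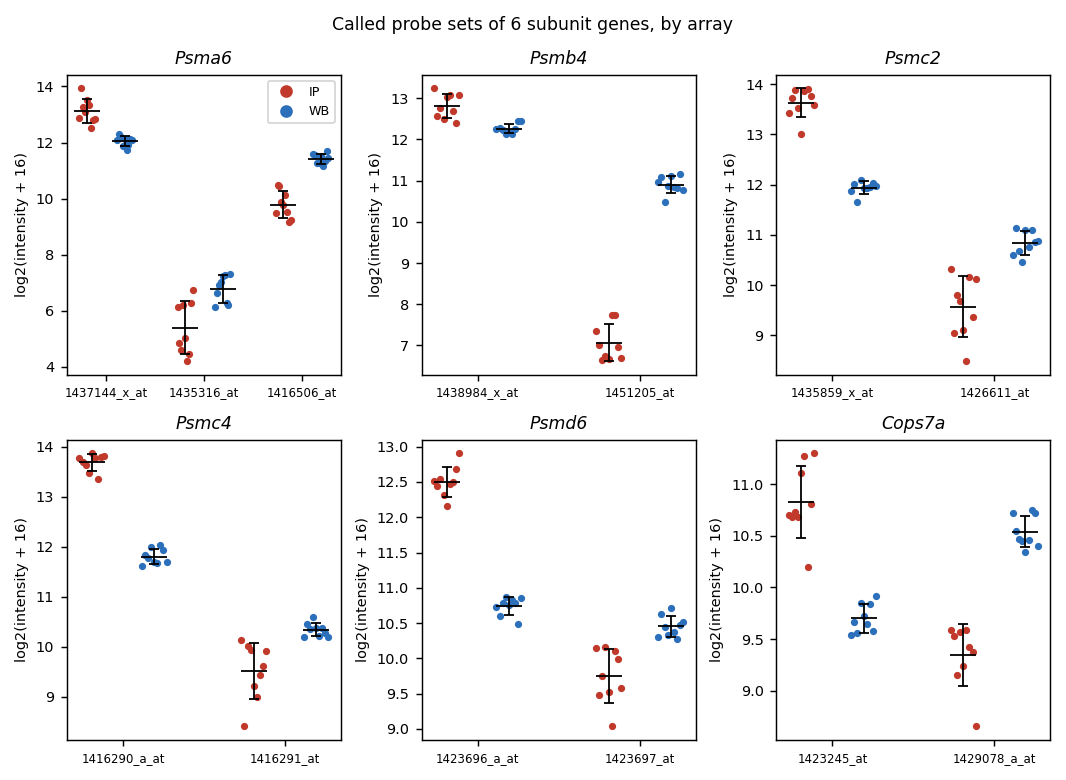
Log2(intensity + 16) in each of the 9 IP (red, left) and 9 WB arrays (blue, right) for the called probe sets of Psma6, Psmb4, Psmc2, Psmc4, Psmd6 and Cops7a, with bars for the mean and SD. In each gene 1 probe set is higher in IP and at least 1 is lower, and the Psmb4 rise on 1438984_x_at (0.55) turns negative under quantile normalization (-0.14) and hybridization control scaling (-0.39).

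Array by array, the median level of the members separated the groups. Over the 119 probe sets it was 8.29, 8.56 and 8.68 (log2) in IP, against 9.09, 9.23 and 9.39 in WB. The core particle median was 8.09 to 9.12 in IP and 9.70 to 10.18 in WB, that of the regulatory particle 8.39 to 8.99 in IP and 9.37 to 9.74 in WB, and that of the signalosome 8.49 to 9.16 in IP and 9.30 to 9.68 in WB. The median of all probe sets also lay lower in IP, at 7.40 to 7.77, against 7.89 to 8.14 in WB. The members' median exceeded it by 0.72 to 1.01 in IP and by 0.94 to 1.47 in WB, ranges that overlap. The level of the hybridization controls was 13.69 to 15.31 in IP and 13.05 to 13.54 in WB. Without the 4 IP arrays highest in those controls 17 member probe sets were higher (14.29%, against 14.98% of all) and 54 lower (45.38%, against 28.97%).

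**Figure D4:**
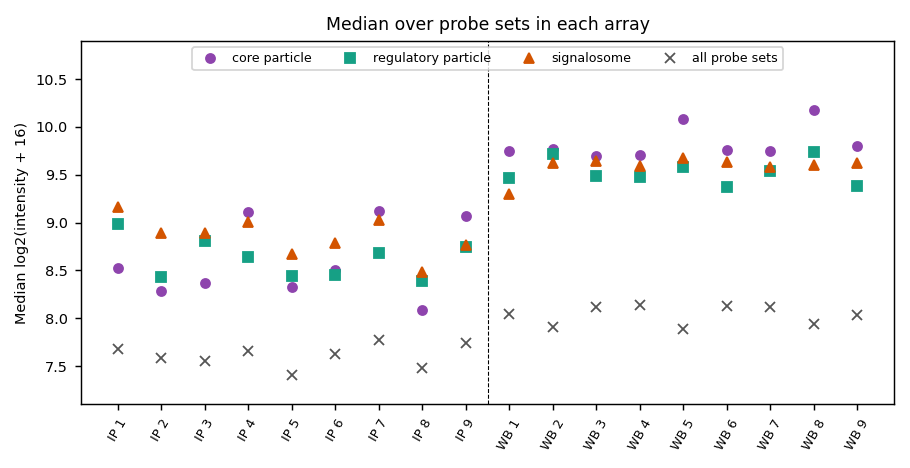
Median log2(intensity + 16) over the probe sets of the core particle, the regulatory particle, the signalosome and all probe sets in each IP array (left of the dashed line) and WB array (right). The IP medians of the 3 groups of members, up to 9.16, all lie under their WB medians, from 9.30 up, and the median of all probe sets is also lower in IP.

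IP arrays differed among themselves more than WB arrays did. The SD over IP arrays exceeded that over WB arrays in 111 of 119 member probe sets, with a median of 0.69 in IP and 0.26 in WB. Over all probe sets the IP SD was the larger in 39487 of 45037, and the medians were 0.74 in IP and 0.34 in WB. Psmf1 1424370_s_at spread most in IP (SD 1.66 in IP and 0.27 in WB), and Psmc4 1416290_a_at least (SD 0.17 in IP and 0.15 in WB). The mean over IP arrays of 21 member probe sets was no higher than the brightest tryptophan control's (6.31, log2), and of these 6 were as dim in WB against its control there (5.92). Of the other 15, 10 were called lower, and the size of those falls depends on the amount added before the log.

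**Figure D5:**
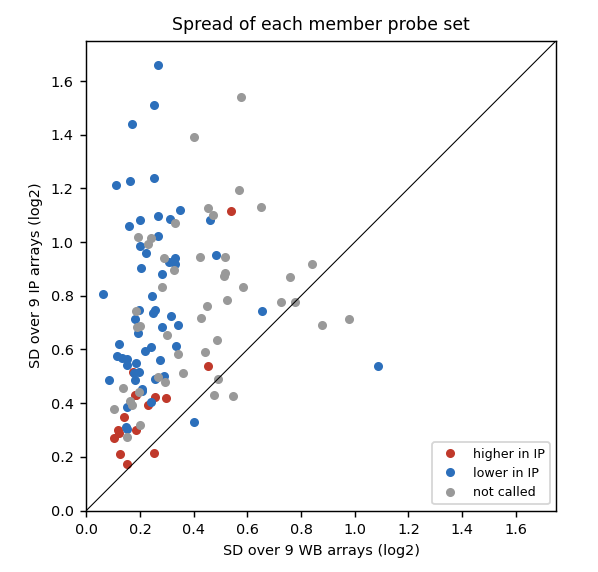
SD over 9 IP arrays (vertical axis, log2) against SD over 9 WB arrays (horizontal axis) for each member probe set, coloured by its call, with the line of equal SD. Of 119 points 111 lie above the line, and the largest SD is that of Psmf1 1424370_s_at in IP (1.66). The IP SD was also the larger in 39487 of all 45037 probe sets.

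Genes that work with these complexes were higher about as often as they were lower, although the split moved with the scaling (10 higher and 11 lower under quantile normalization, against 32.8% and 16.2% of all genes, 18 and 5 after centring, against 39.0% and 11.4%, and 4 and 20 after hybridization control scaling, against 5.44% and 54.2%). As deposited, of 34 measured genes of a list of proteasome partners, ubiquitin shuttles and NEDD8 enzymes, by brightest probe set, 14 were higher and 12 lower (41.2% and 35.3%, against 21.7% each way of all genes) and 8 not called, with a median of 0.25, against 0.00 for all genes. The difference between this list and the subunits was not tested. Usp14, a deubiquitinase bound to the proteasome, had intensities of 4632, 6501 and 10282 in IP, against 1054, 1259 and 1609 in WB (difference 2.33, 5.04-fold higher, adjusted p = 2.81e-12), and was higher on 1 of its 4 probe sets. Ube2f, which passes NEDD8 to cullins, had 2363, 3127 and 4878 in IP, against 589, 947 and 1121 in WB (difference 1.80, adjusted p = 8.38e-10), but was lower on 3 of its 6. Nae1, part of the enzyme that activates NEDD8, had 2221, 3916 and 7082 in IP, against 1029, 1238 and 1328 in WB (difference 1.64, adjusted p = 1.01e-08). In these 3 the IP arrays were all above WB. Vcp, the ATPase that pulls ubiquitinated proteins out of complexes, had 54.5, 406 and 584 in IP, against 2136, 2365 and 3968 in WB (difference -3.08, 8.45-fold lower, adjusted p = 1.21e-08). Nedd8 had 423, 503 and 1237 in IP, against 2415, 2684 and 3719 in WB (difference -2.27, adjusted p = 2.32e-10). Pomp, the maturation factor of the core particle, had 334, 872 and 1376 in IP, against 2444, 2922 and 3497 in WB (difference -1.76, adjusted p = 3.13e-07). All IP arrays of these 3 lay under WB. The ubiquitin-activating enzyme Uba6 (-1.27) was lower, on 1 of its 5 probe sets, and Cops9, a small signalosome subunit, was not called (0.21).

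Nfe2l1, a transcription factor that raises proteasome genes through antioxidant response elements when the proteasome is impaired, was not called (-0.34, adjusted p = 0.0857), and its relative Nfe2l2 was lower (-0.57, adjusted p = 0.0355). The core letters of that element, TGACNNNGC on either strand, were searched in RefSeq promoter windows of GRCm38.p6, from 250 bases before to 50 after each gene start. They occurred in 7 of 48 member genes with a window (14.6%), against 14.0% of 27025 genes. The letters CCAAT occurred on either strand in 17 of the 48 (35.4%), against 41.1% of all. A match of letters is no evidence of binding. Psmb6 and Psmd12, which were lower, and Psme4, called both ways, had matches that are not printed here. The matches shown are of Psmb5 and Psmd9 (only lower calls), Psmc6 (only higher calls) and Cops7a (1 probe set higher and 1 lower). They run 5′ to 3′ on the gene's strand, with the matching letters in capitals.
Psmb5, chr14:54618024-54618052, minus strand: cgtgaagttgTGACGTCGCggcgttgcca
Psmd9, chr5:123228149-123228177, plus strand: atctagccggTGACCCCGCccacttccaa
Psmc6, chr14:45329587-45329615, plus strand: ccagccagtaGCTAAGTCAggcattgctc
Cops7a, chr6:124965431-124965459, minus strand: ctgccggaggTGACGGAGCggccgccccg
The first match starts 47 bases before the gene start and the second 31. In Psmc6 the letters read on the opposite strand, 227 bases before the start, and in Cops7a they start 183 bases before it.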

How the data were processed

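The authors deposited linear intensities made with MAS5 (version not given), per the submitters' processing notes. Groups come from the labels, and per the labels' protocols NuGen WT-Ovation Pico amplification came before labelling. Apart from 64 control probe sets, each deposited intensity was raised by 16 and its log2 taken, with no filter on brightness. The 45037 remaining probe sets went into a limma fit (version 3.58.1, R 4.3.3) with an intensity trend and Benjamini-Hochberg adjustment. The procedure was tested on simulated data with independent arrays and the same spread in both groups, so not on the wider IP spread found here. Of the 45037 probe sets, 34945 had 1 symbol, 932 several and 9160 none in the platform annotation. The subunits, their classes, the lists and the rule for named genes were chosen with earlier results of these data known. In each class that rule takes the 2 largest rises and falls without overlap between groups, with their values, and further genes with 3 or more probe sets called both ways, Psmb8, Psmb9, Psmb10, and the 3 largest rises and falls of the pathway list. Any member may be named. Psme3ip1 was moved to the genes that match by letters only after the symbols were seen. The tryptophan controls and the removal of 4 IP arrays were also chosen after the data were seen. Alternatives were pseudocounts of 1 and 64, other scalings, brightness filters, no trend, array weights, a replicate block, no lettered probe sets and leaving out each array. The number of arrays limits the precision.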

Additional observations from a re-analysis of the deposited data

Results flagged for a closer look

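Among 172 groups of 9 arrays (86 probe sets in IP and in WB), 13 had 1 array farther from its neighbour than Dixon's limit allows, 5 in IP and 8 in WB, and chance flags about 1 in 20. In IP, the low array was replicate 6 for Psmd1 1429291_at (4.87 on the log2 scale, next 7.82), replicate 5 for Psmd7 1451056_at (6.78, next 7.86), replicate 9 for Cops7a 1429078_a_at (8.65, next 9.15) and replicate 2 for Psmd11 1456059_at (8.96, next 9.97). Replicate 9 was high for Psma6 1435317_x_at (11.44, next 9.46). In WB, the low array was replicate 3 for Psmc2 1435859_x_at (11.66), replicate 5 for Psme4 1445147_at (7.48), replicate 4 for Psmb2 1448262_at (10.43), replicate 9 for Psma5 1454940_at (4.84) and replicate 1 for Cops5 1460171_at (9.86). The high array was replicate 1 for Psme3 1438509_at (6.52), replicate 3 for Psmd7 1454368_at (8.75) and replicate 2 for Psmd11 1456104_at (9.78).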

How the results depend on the processing

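Of the 119 probe sets, 51 to 57 were lower (42.86% to 47.9%) and 16 to 18 higher (13.45% to 15.13%) when any 1 array was left out. Of all probe sets, 28.99% to 31.15% were then lower and 13.15% to 14.45% higher. The pseudocounts, the intensity trend, the array weights and both brightness filters moved neither count by more than 1.5 times. Centring gave 27 higher and 37 lower, and hybridization control scaling 5 higher. Leaving out lettered probe sets left 82 members, of which 6 were higher (7.32%, against 11.4% of all those left). That setting removes the 10 higher probe sets that bear a letter, and the 6 plain ones all stayed called. Averaging the probe sets of a gene gave 3 genes higher. No probe set called as deposited was called in the opposite direction under any alternative, but 14 of the 16 higher calls stayed under quantile normalization, 16 after centring and 5 after hybridization control scaling, and of the 56 lower calls 43, 37 and 56 stayed. The turned signs listed next are those among 86 probe sets followed, which include every called one. Uncalled members outside the 86 were not followed, and small differences among them may turn too. Under hybridization control scaling the difference turned negative in Psmc6 1417771_a_at (-0.45), Psma3 1448442_a_at (-0.11), Psma5 1434356_a_at (-0.13), Psmb4 1438984_x_at (-0.39), Psmd11 1456059_at (-0.38) and Psme4 1426823_s_at (-0.18). It also turned in the uncalled Psme3 1418078_at (-0.51), Psmb8 1422962_a_at (-0.43) and 1444619_x_at (-0.22), Psmd11 1432726_at (-0.55) and 1432727_at (-0.83), Psma6 1435317_x_at (-0.83), Psma5 1454940_at (-0.51) and Psme4 1446464_at (-0.44) and 1452211_at (-0.78). Under quantile normalization the sign turned in Psmb4 1438984_x_at (-0.14), Psme3 1418078_at (-0.20) and Psmb10 1448632_at (0.23). After centring it turned in Psmb10 1448632_at (0.33), Psme4 1426824_at (0.11) and Psmd11 1437080_s_at (0.037), and with array weights in Psmb10 1448632_at (0.0318) and Psmd11 1432727_at (-0.0569). Without the 4 IP arrays highest in the hybridization controls it turned in Psmb8 1422962_a_at (-0.0762), Psmd11 1432726_at (-0.14) and 1432727_at (-0.15) and Psmb10 1448632_at (0.12).

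Leaving out 1 array turned the sign of uncalled probe sets only, among the 86 followed, which then ranged from -0.0471 to 0.146 in Psmb8 1422962_a_at, -0.0442 to 0.255 in Psmd11 1432726_at, -0.205 to 0.235 in Psmd11 1432727_at, -0.358 to 0.117 in Psmb10 1448632_at, -0.207 (without IP replicate 9) to 0.191 in Psma6 1435317_x_at and -0.0488 (without IP replicate 7) to 0.207 in Psme4 1452211_at. With the replicate block, 16 member probe sets were higher (13.45%, against 14.02% of all) and 53 lower (44.54%, against 30.43%). The block ended the calls of 3 probe sets, Psme3 1418079_at and 2 of Psma1, and no other among those followed. Samples of the same number did not deviate together (correlations of -0.05 to 0.08, 0 of 9 pairs over 0.1, and 2 of 9 best with their own number), so the number is not treated as a pairing. The cause of these shifts was not tested. Probe sets near the level of the bacterial controls carry little information on size or direction.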
